A study of Mus musculus with 4 samples.

Results

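The BCL2 family members described here are Bcl2, Bcl2l1, Bcl2l2, Mcl1, Bax, Bak1, Bad, Bid, Bcl2l11 and Bik, chosen by name. Every probe set that the platform annotation pairs with 1 of these symbols was taken, which gave 29 of the 22690 probe sets on the array, for 9 of the 10 genes. No probe set was paired with Bax in that annotation, so Bax was not analysed here. RNA came from YAMC cells, a conditionally immortalised line of young adult mouse colon epithelial cells. The cells were either not treated or grown for 16 h in conditioned medium of the probiotic bacterium Lactobacillus GG (LGG). Each group had 2 arrays. By their titles, date 1 and date 2 each hold 1 array of untreated and 1 of treated cells, and the replicate number follows the date. Cells given unconditioned medium were not analysed here, so products of LGG cannot be told apart from effects of the medium itself. Nothing says that the arrays of a group came from separate cultures. The p-values therefore rest only on variation among these arrays, mostly shared across genes, and that variation may be technical.

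Proteins of the BCL2 family decide whether the outer membrane of the mitochondrion stays closed. Bax and Bak1 can form pores in it, which lets cytochrome c out and starts the caspases. Bcl2, Bcl2l1 (Bcl-xL), Bcl2l2 (Bcl-w) and Mcl1 hold the pore-forming proteins and their activators in check. The BH3-only proteins Bad, Bid, Bcl2l11 (Bim) and Bik sense stress and either occupy the protective proteins or activate Bax and Bak1 directly. In the intestinal epithelium this balance helps set how readily cells die after injury. Much of it is set by phosphorylation, cleavage and protein turnover, which an array does not measure.

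The table held linear intensities in the arbitrary units of the array. Trimmed by 2% at either end, the arrays' mean intensities were 500.1 to 513.5. Precision is limited by the small number of arrays. At date 1, neither array holds a value for 6307 of the probe sets. Defining markers of colon epithelium were at or near the bottom of the scale on every array, with intensities of 6 to 9 for Epcam, 8.7 to 41.8 for Cdh1 and 1.7 to 10.5 for Vil1, whereas the keratin gene Krt18 measured 834.8 to 1966.8. Of 12 epithelial markers 4 were bright enough to test, and the matrix genes Col1a1 (6568.6 to 10156.3) and Dcn (4084.9 to 8376.2) were bright. Of 8 fibroblast markers 4 were tested, and Thy1 (51.4 to 93.7), Lum (59.8 to 88.6) and Pdgfrb (48.2 to 80.1) were too dim. The brightest probe sets of the epithelial markers summed to 2610 and 3409.3 in the untreated and 3042.6 to 3576.7 in the treated arrays. The fibroblast markers summed to 17551.6 to 20204.1 and 13315.9 to 14841.2, the immune markers to 627 to 845 and 896.9 to 910, and the endothelial markers to 309 to 398.3 and 452.2 to 487. Col3a1 had no value at date 1 and is not in the fibroblast sum, most of which is Col1a1 and Dcn. Of the markers tested, Dcn fell and the macrophage marker Cd68 and the endothelial marker Kdr rose (log2 changes -0.91, 1.06 and 1.29, limma, adjusted p = 0.0014, 0.0314 and 0.00924). The calls of Cd68 and Kdr were lost without the date block (adjusted p = 0.109 and 0.0622). All 4 tested fibroblast markers had negative log2 changes, with a median of -0.51, and Dcn alone passed. Of the dim fibroblast markers, Thy1 and Lum were lower in the treated array at both dates. Pdgfrb, by its brighter probe set, was higher at both (log2 ratios 0.05 and 0.52). Other endothelial and myeloid markers did not go the way of Kdr and Cd68. The endothelial markers Tek (149.4 and 96.1 untreated, 36.8 and 51.4 treated) and Pecam1 (48 and 34.1 untreated, 12.1 and 21.3 treated) were too dim to test and lower at both dates, and the myeloid markers Csf1r and Cd14 had log2 changes of -0.12 and 0.01. The part of such differences in the results for the BCL2 family was not tested.

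Treated and untreated cells were compared to ask whether transcripts of protective and of death-promoting members differ after LGG conditioned medium. Of the 29 probe sets, 20 were measured on each of the 4 arrays and 13 of these, for 8 genes, were bright enough to test (a mean intensity of at least 101). A single probe set passed, 1 of the 3 tested for Mcl1, and it fell. None rose. Over all 10333 probe sets tested, 6.55% passed, with 2.69% higher and 3.86% lower, so the share of the family, 7.69%, lay near that of the array as a whole. Calls were made with limma, blocked by date, at a Benjamini-Hochberg adjusted p under 0.05 over all probe sets. At an unadjusted p under 0.05 there were 2 of the 13, both of Mcl1, against 20.5% of all probe sets. The untreated and treated arrays did not overlap for 6 of the 13, against 47% of all probe sets. The treated arrays were the higher in 3, against 23.4% of all, and the lower in 3, against 23.6%. The sign was the same at both dates for 7 of the 13, against 64.1% of all probe sets. The fitted log2 changes ran from -0.86 to 0.49 with a median of -0.09, beside a median of 0.01 over all probe sets. The log2 ratios of a member at the 2 dates differed by a median of 0.48, beside 0.32 over all probe sets. Changes were computed on log2(intensity + 25.2), which understates those of dim probe sets.

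**Figure D1:**
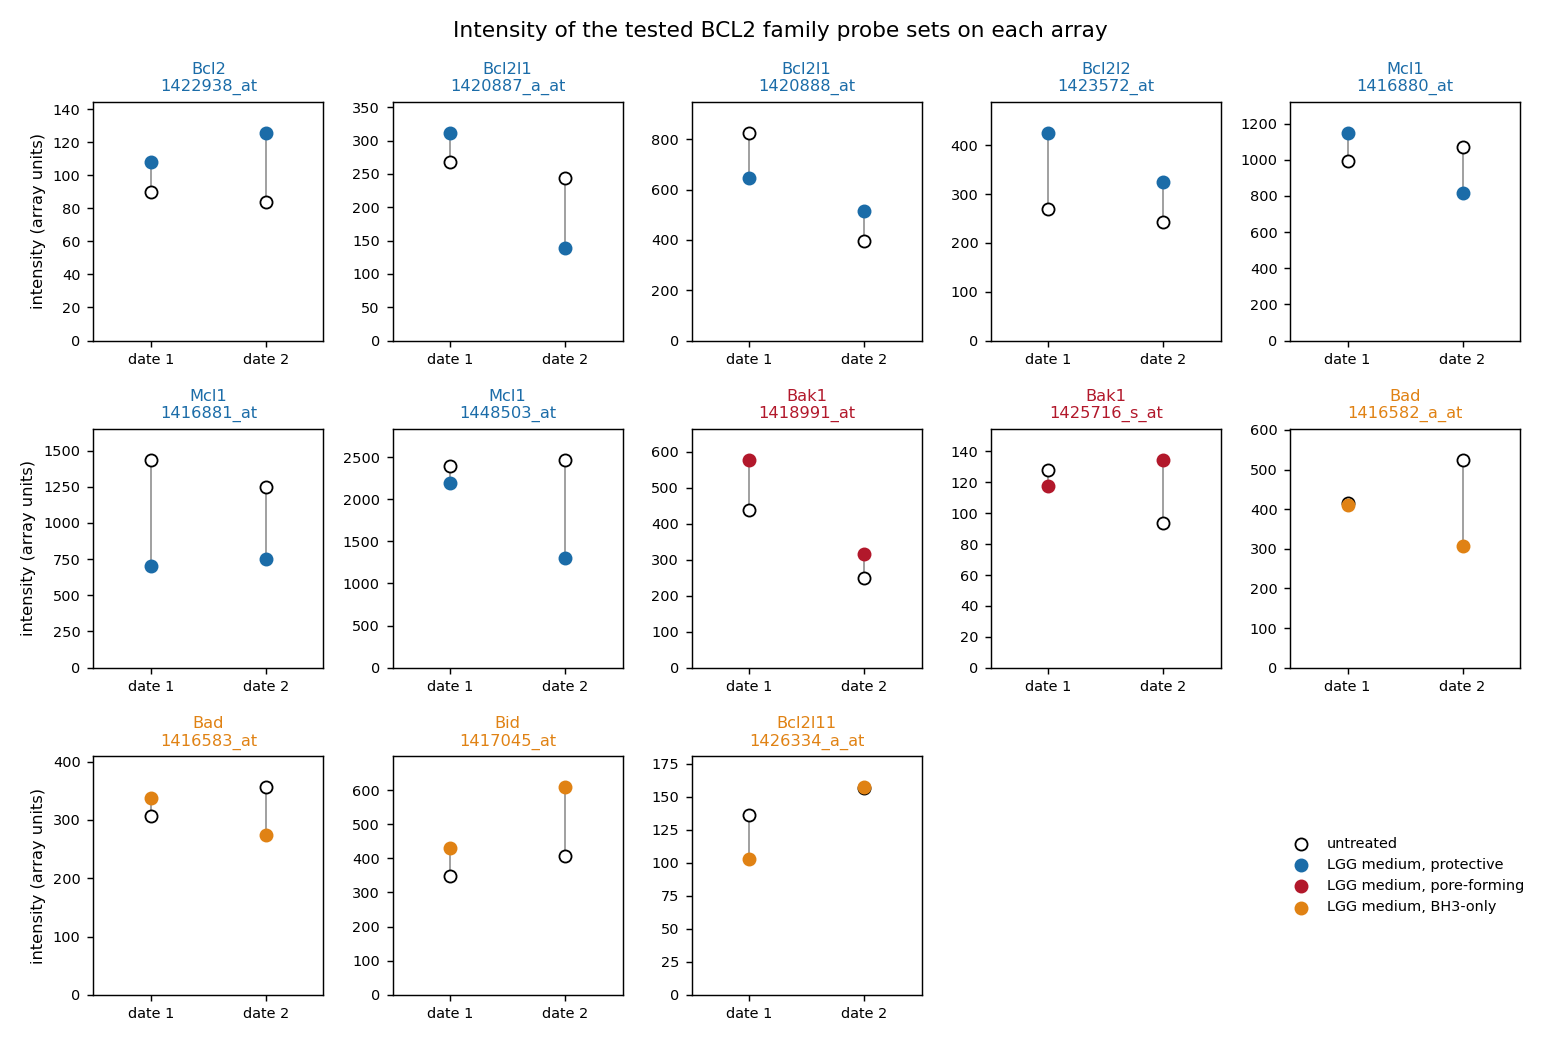
Intensity (array units, linear axis from 0) of the 13 tested BCL2 family probe sets on each of the 4 arrays. Open circles are untreated arrays and filled circles are arrays of cells in LGG conditioned medium, joined within each date and coloured by role; Mcl1 1416881_at was lower by a similar amount at both dates, whereas both Bcl2l1 probe sets went in opposite directions at the 2 dates.

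Mcl1, a short-lived protective protein, was measured by 6 probe sets, of which 3 have values at both dates and come from the same source sequence record. Probe set 1416881_at measured 1433.6 (date 1) and 1246 (date 2) in untreated cells and 705.4 and 750.3 in treated cells. Both treated arrays were well below both untreated arrays, and the difference was larger than the spread within either group, which was 1339.8 ± 132.7 untreated and 727.9 ± 31.7 treated (SD, n = 2 arrays). It fell by 0.86 ± 0.21 on the log2 scale (SE; limma, adjusted p = 0.0276), and the 95% interval was -1.31 to -0.40. Within date 1 the log2 ratio was -1.0 and within date 2 it was -0.71. It ranked 461 of 10333 by p. Without date as a block the change was the same and the call was lost (adjusted p = 0.0944). With any 1 of the 4 arrays left out the log2 change lay between -0.95 and -0.76. Those fits also had no date block and a single array in 1 group. They therefore cannot tell whether the call depends on any 1 array. In these cultures fewer cells of a type and less RNA per cell cannot be told apart.

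The other Mcl1 probe sets did not give the same size. Probe set 1448503_at measured 2390.3 and 2464.3 untreated and 2190.9 and 1302.1 treated. The treated arrays were again the lower ones with no overlap, but at date 1 the difference was small (log2 ratio -0.12, against -0.91 at date 2), and the fitted log2 change of -0.52 ± 0.21 did not pass (limma, adjusted p = 0.173). In fits without the date block, leaving out LGG replicate 1 gave -0.89, which passed (adjusted p = 0.032), and leaving out LGG replicate 2 gave -0.15. Each of these fits has a single treated array, which is assumed to vary like the untreated ones. Probe set 1416880_at measured 992.9 and 1071.8 untreated and 1148.7 and 817.7 treated. Here the treated array was the higher at date 1 and the lower at date 2, the groups overlapped, and the log2 change was -0.09 ± 0.22 (adjusted p = 0.877). The remaining 3 had values at date 2 only, where a single array per group allows no test. They measured 2235.3, 1598.1 and 560.9 untreated and 1690.5, 1168.6 and 382.6 treated, log2 ratios of -0.40 to -0.52. All 6 Mcl1 probe sets were therefore lower in the treated array of date 2, and 2 of 3 in that of date 1. They share 1 gene and the same 2 arrays of date 2, so they are not 6 independent observations. Over all probe sets tested, 45.3% were lower at date 2. Of those with values at date 2 alone and a mean intensity of at least 101, 47.9% were lower. Actb probe sets at the 3' end over those at the 5' end give a ratio that reflects RNA integrity. It was 1.11 and 1.08 untreated and 1.20 and 1.05 treated at dates 1 and 2. For Gapdh it was 0.80 and 0.78 untreated and 0.93 and 0.77 treated. The part of RNA integrity in the differences between the Mcl1 probe sets was not tested.

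**Figure D2:**
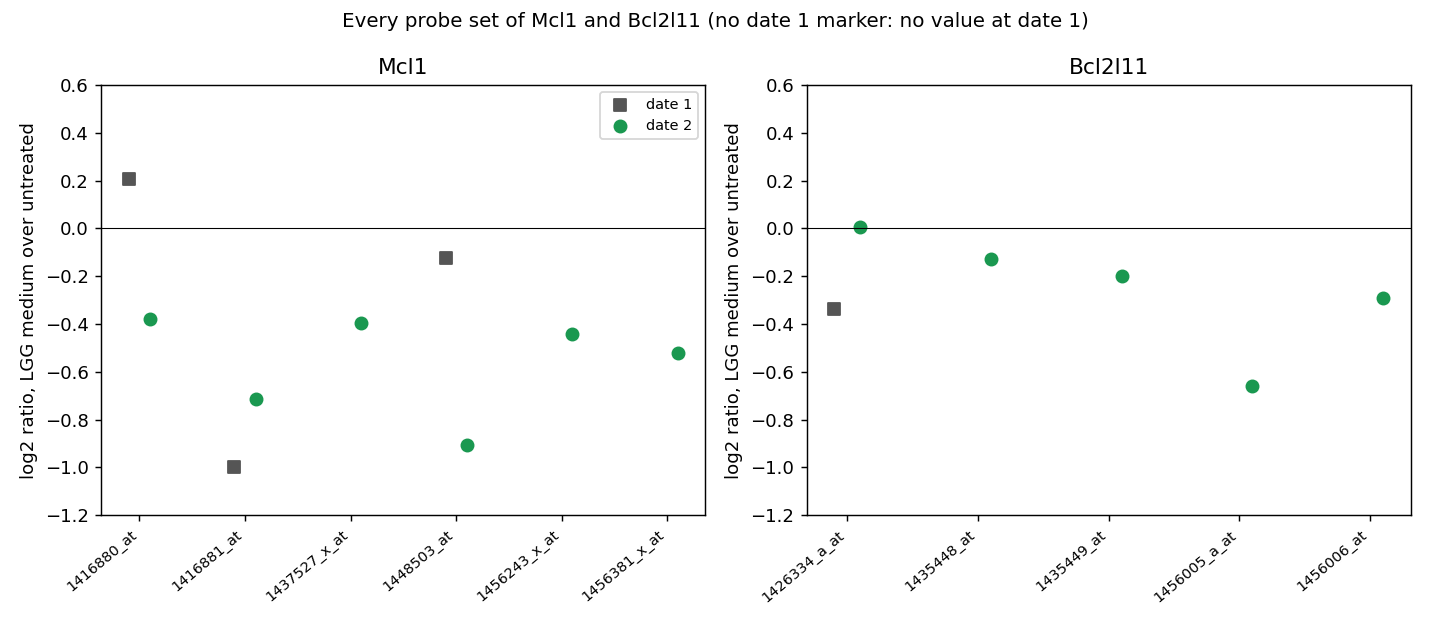
Log2 ratio of treated over untreated intensity within each date for every probe set of Mcl1 (left) and Bcl2l11 (right). Squares are date 1 and circles date 2, and a probe set with no square had no value at date 1; all 6 Mcl1 circles lie below 0, from -0.91 to -0.38, and 4 of the 5 Bcl2l11 circles lie below 0.

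The sequence just upstream of the Mcl1 start site is shown because Mcl1 was the 1 member that passed. It is the 250 bases before the RefSeq start at chr3:95658471-95658720 (GRCm38.p6, plus strand), a window ahead of the transcript, with the GC box in capitals.
Mcl1 upstream: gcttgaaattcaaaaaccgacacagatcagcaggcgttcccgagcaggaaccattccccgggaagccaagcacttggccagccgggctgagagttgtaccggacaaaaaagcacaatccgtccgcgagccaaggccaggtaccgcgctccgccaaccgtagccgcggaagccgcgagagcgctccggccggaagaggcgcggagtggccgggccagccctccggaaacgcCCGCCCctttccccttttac
The letters searched, on both strands, were the GC box GGGCGG, the heat shock element GAANNTTC, the cyclic AMP response element TGACGTCA and the AP-1 site TGANTCA, none of which contains another. The GC box matched at 20 bases before the start, on the minus strand, and the other 3 had no match in this window. RefSeq windows of the same kind were given for 9 members, 13 windows in all, and not for Bik. The GC box was in 8 of the 13, against 32.7% of 32817 mouse windows. The heat shock element was in 1, a window of Bad, against 6.69%. The cyclic AMP response element and the AP-1 site were in 0 of the 13, against 1.55% and 6.75%. Such matches describe letters and not binding.

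Of genes with other names, the 3 whose values over the 4 arrays lay closest to those of Mcl1 1416881_at were Afg1l, Wdr6 and Tgfb3 (Euclidean distances of 0.0174, 0.0493 and 0.0625 between centred log2 values). Afg1l measured 277.1 and 234 untreated and 125.3 and 133.7 treated. Wdr6 (log2 change -0.83) passed by limma with an adjusted p of 0.0283, and Afg1l (-0.86) and Tgfb3 (-0.80) did not (0.072 and 0.0543). The 3 genes were picked for this closeness, so changes near that of Mcl1 follow from the choice and support nothing.

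None of the other protective members passed. Bcl2l2, which encodes Bcl-w, measured 270.3 and 243.5 untreated and 425.2 and 324.8 treated by probe set 1423572_at. Both treated arrays were the higher ones, but by 0.61 at date 1 and 0.38 at date 2 on the log2 scale, and the fitted change was 0.49 ± 0.24 (95% interval -0.03 to 1.02, limma, adjusted p = 0.273). It was the largest positive change among the 13. Bcl2, the founding member of the family, measured 89.6 and 84.1 untreated and 108.2 and 125.6 treated. Its groups did not overlap either, but the probe set was dim, with a mean of 101.9. It passed the filter only through the treated arrays, whose mean was 116.9 against 86.9 untreated, so its place among the 3 members with higher treated arrays supports nothing. Its log2 change was 0.34 ± 0.28 (interval -0.27 to 0.95, adjusted p = 0.552).

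Bcl2l1, which encodes Bcl-xL and by alternative splicing the death-promoting Bcl-xS, was measured by 2 tested probe sets that went opposite ways at each date. Probe set 1420888_at measured 825.2 and 394.3 untreated and 645.7 and 513.2 treated, so the treated array was the lower at date 1 and the higher at date 2. Probe set 1420887_a_at measured 267.1 and 244.5 untreated and 311.4 and 139 treated, the reverse order. The untreated arrays alone differed by 1.02 on the log2 scale between the dates for 1420888_at. The fitted changes were 0.01 ± 0.24 (interval -0.52 to 0.53, adjusted p = 0.99) and -0.26 ± 0.28 (interval -0.86 to 0.35, adjusted p = 0.672). Both intervals hold changes of either sign, and no direction can be given for Bcl2l1. Its other 2 probe sets were below the filter, with intensities of 7.4 to 69.8.

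Of the pore-forming members Bak1 alone had probe sets, both tested and neither past the threshold. Probe set 1418991_at measured 438.9 and 248 untreated and 577 and 315.5 treated. The treated array was the higher at each date, by 0.38 and 0.32 on the log2 scale, yet both arrays of date 2 were lower than both of date 1, so that the groups overlapped. The fitted change was 0.35 ± 0.24 (interval -0.16 to 0.86, adjusted p = 0.45), and the drop from date 1 to date 2 was 0.76 untreated and 0.82 treated. Probe set 1425716_s_at was dimmer, with 127.7 and 93.7 untreated and 117.8 and 134.4 treated. Its ratios had opposite signs at the 2 dates (log2 change 0.16 ± 0.29, adjusted p = 0.805).

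**Figure D3:**
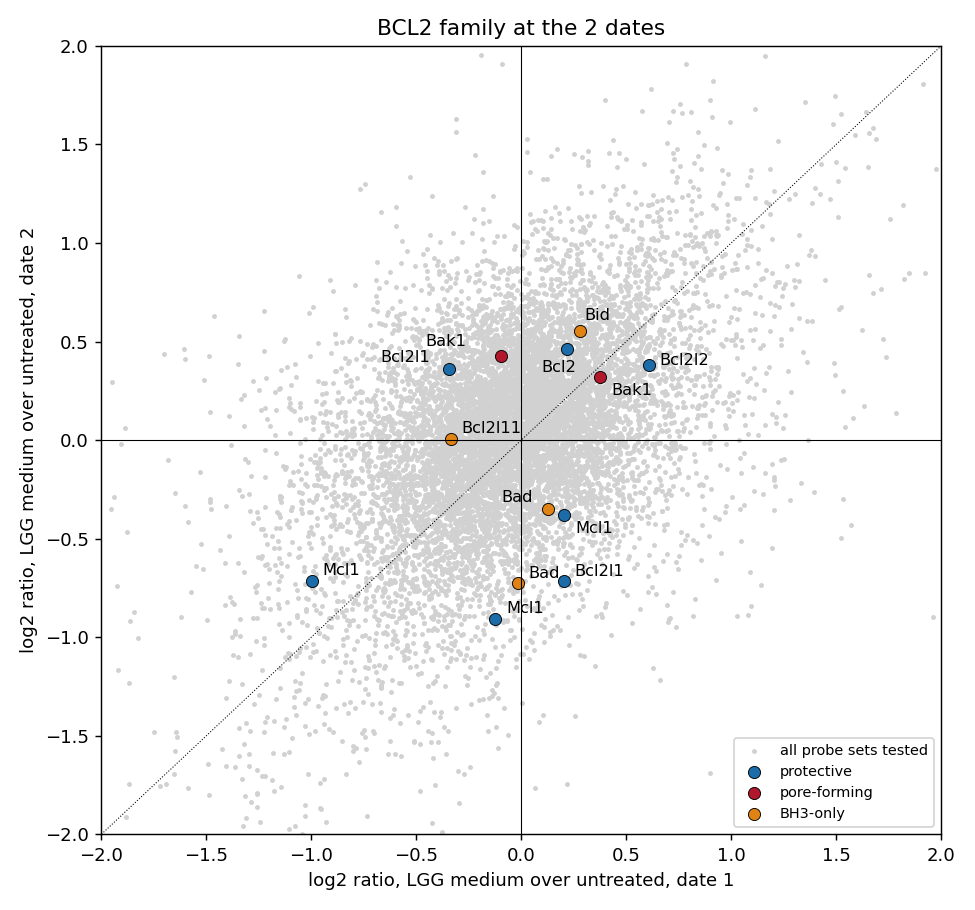
Log2 ratio of treated over untreated intensity at date 1 (horizontal) and at date 2 (vertical) for the 13 tested BCL2 family probe sets, coloured by role, over all 10333 probe sets tested (grey; 80 lie outside the axes). On the dotted line the ratio is the same at both dates; Mcl1 1416881_at lies near it at -1.0 and -0.71, and 6 of the 13 members lie in the quadrants where the signs of the 2 dates are opposite.

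Of 4 tested probe sets of BH3-only members 0 rose and 0 fell by limma. At an unadjusted p under 0.05 there were also 0 of the 4, against 20.5% of all probe sets, a share at which 0 of so few says nothing particular to these members. Bid, which links death receptors to the mitochondrion once a caspase has cut it, measured 348.6 and 406.4 untreated and 429.2 and 608.1 treated by probe set 1417045_at. Both treated arrays were higher than both untreated arrays, by 0.28 (date 1) and 0.55 (date 2) on the log2 scale, and the fitted change was 0.42 ± 0.23 (interval -0.09 to 0.92, adjusted p = 0.347). Its other probe set, 1448560_at, lay just outside the filter with a mean of 97.7 and measured 95.2 and 99.7 untreated and 35 and 160.8 treated, lower at date 1 and higher at date 2. Bad, which is kept inactive by phosphorylation and 14-3-3 proteins, measured 414.8 and 523.8 untreated and 409.5 and 306.4 treated by probe set 1416582_a_at. The groups did not overlap by a margin of a few units at date 1, and almost all of the difference came from date 2 (log2 ratios -0.02 and -0.73). The fitted change of -0.37 ± 0.25 did not pass (adjusted p = 0.45), and 1416583_at, with 307.2 and 355.8 untreated and 337.8 and 274 treated, gave -0.11 ± 0.25 (adjusted p = 0.858).

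Bcl2l11, which encodes Bim, an activator of Bax and Bak1, measured 136.5 and 156.2 untreated and 102.8 and 157.1 treated by its 1 tested probe set. The treated array was lower at date 1 and level with the untreated array at date 2 (log2 change -0.16 ± 0.27, adjusted p = 0.795). Its 4 brighter probe sets had values at date 2 only, with 1 array per group. They measured 733, 440.1, 1807.7 and 252.7 untreated and 668.3, 380.3, 1134.4 and 201.9 treated. All 4 were lower in the treated array, with log2 ratios from -0.66 to -0.13. Of all probe sets that had values at date 2 alone and a mean intensity of at least 101, 47.9% were lower, a count without a test. Bik, a BH3-only gene of the endoplasmic reticulum, was dim on every array, with intensities of 2.7 to 54.1 over its 3 probe sets, and none was tested.

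Set side by side, the protective and the death-promoting arm held 1 call between them. Of 7 tested probe sets of protective members 1 fell, 0 rose and 6 did not pass, and of 6 of death-promoting members 0 fell, 0 rose and 6 did not pass. The median log2 change was -0.09 for protective and 0.03 for death-promoting members, beside 0.01 over all probe sets. The order depended on how a member was represented: by its brightest tested probe set the medians were 0.17 and 0.091, and by the mean over its probe sets 0.0099 and -0.061. With 1 array left out the protective median lay between -0.33 and 0.17, the highest without LGG replicate 2. At date 1 the medians were 0.20 and 0.055, and at date 2 they were -0.38 and 0.16, so the order of the arms was reversed between the dates. Beside the order, the range within each arm was wide, from -0.86 to 0.49 among protective and from -0.37 to 0.42 among death-promoting members. Probe sets of 1 gene share their transcript and are not independent, and 3 of the 7 protective probe sets were those of Mcl1.

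In the wider BCL2 family 6 of 19 genes were tested by their brightest probe set, and 0 rose and 1 fell. Their median log2 change was -0.01 beside 0.03 over all 6952 genes. By limma 3 of the 6 had an unadjusted p under 0.05, against 20.3% of all genes. Of all genes 6.5% passed, 3.01% higher and 3.5% lower, and these lists are too short to set their counts apart from those shares. The 1 was Bnip3, a BH3-like protein of mitophagy, which measured 1195.7 and 2069.9 untreated and 771.4 and 997.1 treated. The treated array was the lower at each date, and Bnip3 fell by 0.83 ± 0.21 (limma, adjusted p = 0.0311). That call was lost without the date block (adjusted p = 0.214). Bnip3 had a log2 change of -0.44 without untreated replicate 2 and -1.22 without untreated replicate 1, in fits that also had no date block. Bcl2l13, a mitochondrial family member, measured 737 and 692.3 untreated and 1083.2 and 1273.1 treated, higher at each date without overlap (0.70 ± 0.21, adjusted p = 0.0716). Bbc3, the p53-induced BH3-only gene known as Puma, measured 492.7 and 408.3 untreated and 327.9 and 253.5 treated, lower at each date without overlap (-0.59 ± 0.24, adjusted p = 0.17).

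Downstream of the mitochondrion 9 of 13 genes were tested, and 0 rose and 0 fell by limma, with 1 at an unadjusted p under 0.05 and a median of 0.05. That gene was Apaf1, the scaffold of the apoptosome, which measured 991 and 1002.2 untreated and 339.4 and 782.3 treated (-0.91 ± 0.27, adjusted p = 0.0603). The treated array was lower by far more at date 1 (log2 ratio -1.48) than at date 2 (-0.35). Leaving out LGG replicate 2 gave a log2 change of -1.49 and leaving out LGG replicate 1 gave -0.34. Both fits had a single treated array and no date block. Aifm1, a mitochondrial flavoprotein, and the executioner caspase gene Casp6 had log2 changes of 0.34 and 0.05. Of 26 regulators of the members 24 were tested, 1 rose and 0 fell, with a median of -0.10. By limma 5 of the 24 had an unadjusted p under 0.05, against 20.3% of all genes. Ddit3, a stress transcription factor known to repress Bcl2 and induce Bcl2l11, measured 263.2 and 363 untreated and 2212.5 and 1116 treated. Both treated arrays were far above both untreated arrays (log2 change 2.26 ± 0.29, adjusted p = 0.000709), and it passed without the date block too (adjusted p = 0.0288). Its log2 change was 2.04 when the untreated array of date 1 was dropped and 2.47 when that of date 2 was dropped. Dropping a treated array instead gave 1.77 (date 1) and 2.74 (date 2). These fits had no date block and a single array in 1 group. They therefore cannot tell whether the Ddit3 call depends on any 1 array. Beside Ddit3, Bcl2 and Bcl2l11 had the log2 changes of 0.34 and -0.16 given above, neither of which passed. The kinase genes Pim3 and Mapk9 (0.64 and 0.62), the chaperone regulator Bag3 (0.51) and Usp9x, a deubiquitinase that stabilises Mcl1 protein (-0.43), did not pass. These values are of the brightest probe sets. Of the 3 tested probe sets of Mapk9 1 was lower, and of the 3 of Usp9x 1 was higher. By their brightest probe sets the 6 genes of 14-3-3 proteins, which bind phosphorylated Bad, had log2 changes between -0.26 and 0.14, and 0 passed. By these probe sets 0 of the 6 had an unadjusted p under 0.05, against 20.3% of all genes. These genes were singled out after their values were seen. Other probe sets of Ywhaz had log2 changes of -0.39 (limma, unadjusted p = 0.0368, adjusted p = 0.207) and -0.47 (unadjusted p = 0.0784). All tested probe sets of Ywhab (5), Ywhae (3), Ywhaq (3) and Ywhaz (4) were lower. So were 2 of the 3 of Ywhag, and the 1 of Ywhah was higher.

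**Figure D4:**
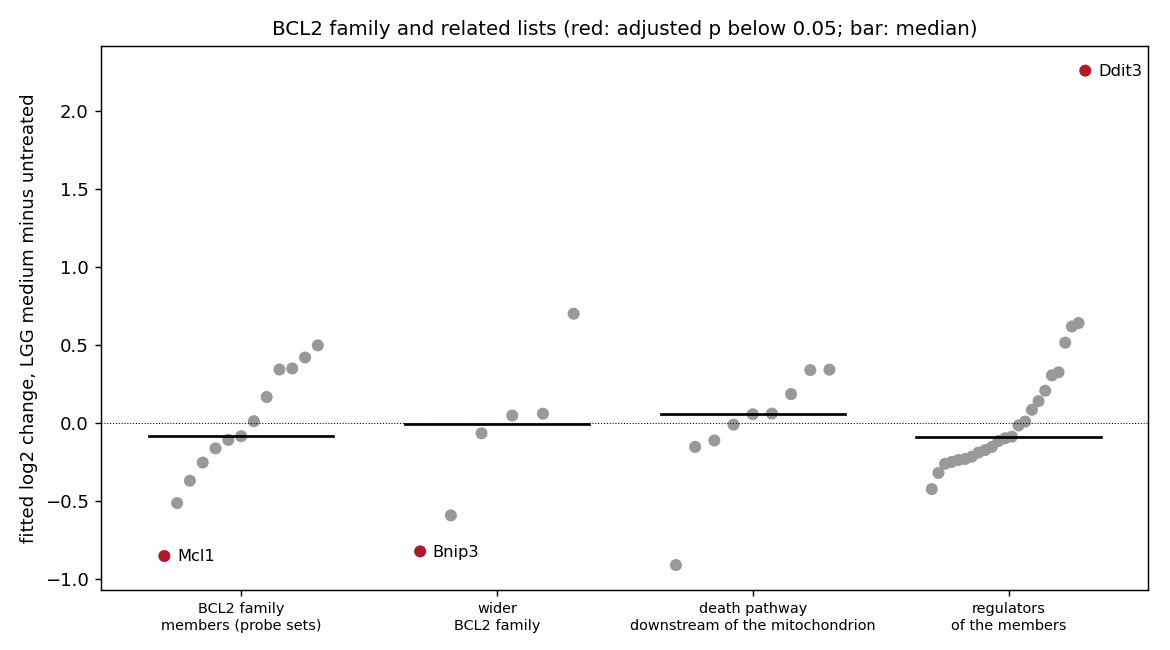
Fitted log2 change (treated minus untreated) of the 13 tested BCL2 family probe sets and of the tested genes of the 3 related lists, each sorted from low to high. Red points had an adjusted p under 0.05 and black bars are medians; 1 point is red among the members (Mcl1), 1 in the wider family (Bnip3) and 1 among the regulators (Ddit3).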

How the data were processed

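Per the labels, RNA was extracted with Trizol and a Qiagen kit and hybridised to mouse 430A arrays. Values are linear intensity as the authors deposited them, 1 column per array; software, scaling and filters are not given in the sources used here. No detection calls were used. The table was fitted as a whole and the p-values adjusted over all 10333 probe sets tested. Values were used as log2(intensity + 25.2), the pseudocount being 5% of the trimmed mean, and probe sets with a mean under 20% of it, controls and those without date 1 values were left out. Limma 3.58.1 (R 4.3.3) was run with group and date, an intensity trend and a two-sided test at 0.05. It had 1 residual and 12.5 prior degrees of freedom, so SEs, intervals and p-values rest mostly on variance shared across genes.

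The titles' dates pair the arrays; across probe sets, the difference between dates in untreated arrays correlated at 0.27 with that in treated arrays. What the dates mark is not given. Gene names came from the platform annotation, of which 20364 of 20393 single symbols matched RefSeq (GRCm38.p6) by Entrez identifier. Upstream sequences are RefSeq's.

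The members, lists and tests were chosen with earlier results of these data known. Named were all members, list genes that passed, and the 3 genes nearest to a called member. Up to 4 others per related list were also named, those with the largest change of 1 sign at both dates. The 14-3-3 genes were singled out after their values were seen. The fit was tested on simulated data with independent noise, which checks the code and not the replication of these arrays. Figures used matplotlib 3.10.9.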

Additional observations from a re-analysis of the deposited data

Results flagged for a closer look

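Among the 9 BCL2 family probe sets with a value at date 2 alone, which enter no test, 2 were higher in the treated than in the untreated array of that date, both of Bcl2l2. Probe set 1430453_a_at measured 37.7 untreated and 128.1 treated, and 1430454_x_at measured 6.8 and 20.9. With 1 array per group neither difference was tested, and the tested Bcl2l2 probe set measured 243.5 and 324.8 on the same arrays. Both flagged probe sets had a mean intensity under 101, so the share of 47.9% lower given above does not cover them. The remaining Bcl2l2 probe set, 1451029_at, was also too dim to test. It measured 38.5 and 8.9 untreated and 27.1 and 12.1 treated, lower at date 1 and higher at date 2.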

How the results depend on the processing

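The call of Mcl1 1416881_at was kept under 4 of 12 alternatives by limma (a pseudocount of 1 or of 20% of the trimmed mean, a filter at 50% of it, and quantile normalization), with adjusted p from 0.0287 to 0.698 over all 12. Its log2 change was -0.86 without date as a block (adjusted p = 0.0944), -0.86 with no filter on dim probe sets (0.14), -0.84 under median scaling (0.055) and -0.86 without an intensity trend (0.0682), and from -0.95 to -0.76 with 1 array left out. Under those 4 settings the number of family members that fell was 0, as was that of the wider family; with 1 array left out these were 0 to 1 and 0. Over all probe sets, 278 rose and 399 fell, against 39 and 58 without the block, 0 and 0 without the filter (2296 at an unadjusted p under 0.05), 211 and 245 under median scaling, 164 and 214 without the trend, and 0 and 0 without either untreated array (729 and 818 unadjusted). The count of regulators that rose was 0 without the filter and 0 to 1 with 1 array left out, and downstream genes that fell were 0 to 1. The median of death-promoting members was 0.12 with a filter at 50% and -0.061 as the mean over all probe sets of a member; that of protective members was 0.17 by the brightest probe set and -0.33 to 0.17 with 1 array left out.

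With a pseudocount of 20% of the trimmed mean Bcl2l1 1420888_at changed sign (-0.000193). With 1 array left out, signs also changed for Bcl2l1 1420887_a_at (-0.77 to 0.26) and 1420888_at (-0.50 to 0.52), Mcl1 1416880_at (-0.33 to 0.15), Bak1 1418991_at (-0.064 to 0.76) and 1425716_s_at (-0.017 to 0.35), Bad 1416583_at (-0.25 to 0.029) and Bcl2l11 (-0.42 to 0.090), and Mcl1 1448503_at lay between -0.89 and -0.15. These fits had no date block, since 3 arrays leave it no residual degree of freedom, and the lone array of a group is assumed to vary like the other group. The causes were not tested. Dim probe sets had no background measure, so no bound could be given for Bik.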
